A study of Mus musculus with 20 samples.

Results

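The data described here are the cerebellar transcript levels of 5 genes for calcium-activated potassium channels, taken from the 21897 protein-coding genes of the count table. They were chosen by name, and each symbol matched 1 gene of the table. Kcnma1 encodes the pore of the large-conductance BK channel and Kcnmb4 encodes its neuronal accessory beta subunit. Kcnn1, Kcnn2 and Kcnn3 encode the pores of the small-conductance SK1, SK2 and SK3 channels.

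Both kinds of channel open when calcium rises inside the cell and let potassium leave, which ends a spike and sets the pause before the next one. BK channels respond to calcium and to voltage together, and the beta4 subunit changes how they gate. SK channels respond to calcium alone, through calmodulin bound to the pore. In Purkinje cells (PCs), the output neurons of the cerebellar cortex, both channels contribute to regular firing, and loss of Kcnma1 causes ataxia in mice.

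RNA was sequenced from the cerebellum of 20 mice, 1 per library. All mice were on the C57BL/6J background. The 9-week cohort held 3 AAV-shA4-treated and 3 untreated animals, all WT. The 25-week cohort held 4 untreated WT animals, with AAV-shSCR in 5 SCA7 animals and AAV-shA4 in 5 others. The SCA7 mice are heterozygous knock-in animals with 140 CAG in 1 Atxn7 allele and 5 in the other, a model of spinocerebellar ataxia type 7. AAV-shA4 is a PHP.eB vector for a short hairpin RNA against CAG repeats, and AAV-shSCR carries a scrambled hairpin. Per the methods, saline was given to untreated animals and vectors were injected intravenously. In eGFP sections of other mice, the study saw the vector in most PCs and in few granule cells. The weeks are those of the labels, which do not say from which day they count. The paper places the early RNA samples 9 weeks after injection and the late ones at another number of weeks after injection than the label. The labelled weeks are therefore not to be read as ages of the mice. No WT mice given AAV-shSCR and no untreated SCA7 mice enter the comparisons, so against WT mice genotype and vector cannot be told apart. Replicates are separate mice.

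Between 31465586 and 54570503 reads were counted on genes per library. Levels are depth-normalised counts (CPM) on 1 TMM scale for the 20 libraries. Calls needed a fold change over 1.3 either way together with p under 0.05 in the edgeR quasi-likelihood test, Benjamini-Hochberg adjusted over all genes tested. All 5 channel genes passed the filter on low counts in each fit. At 12 of 12 PC markers some reads were present in each library, with a summed level of 7864.5 to 12567 CPM.

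Because shA4 targets CAG repeats, the CAG runs of the channel transcripts are shown with 3 flanking bases on each side, with the run in capitals. The sequences are those of GENCODE M21 transcripts of build GRCm38, written 5′ to 3′ on the sense strand.
Kcnn3: tcgCAGCAGCAGCAGCAGCAGCAGtcg
Kcnmb4: gtgCAGCAGatc
Kcnn1: gccCAGCAGgag
The run of Kcnn3, on chromosome 3 within 89520164 to 89675132, has 7 CAG and lies in the coding sequence of transcript Kcnn3-201. It encodes glutamines 67 to 73 of a protein of 732 residues. Kcnmb4, on chromosome 10 within 116417861 to 116473878, and Kcnn1, on chromosome 8 within 70842049 to 70863258, have coding runs of 2 CAG.

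The longest run of Kcnma1, on chromosome 14 within 23289431 to 24014491, has 4 CAG and lies in a non-coding transcript. Kcnn2, on chromosome 18 within 45268860 to 45686024, has its longest run, 3 CAG, in an untranslated part of transcript Kcnn2-205. Its coding sequence also holds CAG codons: in Kcnn2-201, glutamines 84 to 88 of a protein of 839 residues form a run of 5. Of these 5 codons 4 are CAG, not all in a row. Among 21951 genes with a transcript sequence, 209 (0.952%) hold 6 or more CAG in a row.

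The 5 genes differed widely in level. Per kilobase of median transcript length, the mean over the 20 libraries was 87.8 CPM for Kcnma1, 48.1 for Kcnmb4, 20.6 for Kcnn2, 3.81 for Kcnn1 and 2.19 for Kcnn3. Per kilobase of all exons joined, the means were 17.7, 13.6, 5.09, 1.72 and 1.17 CPM in the same order of genes, so the order of levels did not depend on the length used. Kcnma1 was thus the highest of the 5 in the whole cerebellum and SK3 the lowest.

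**Figure D1:**
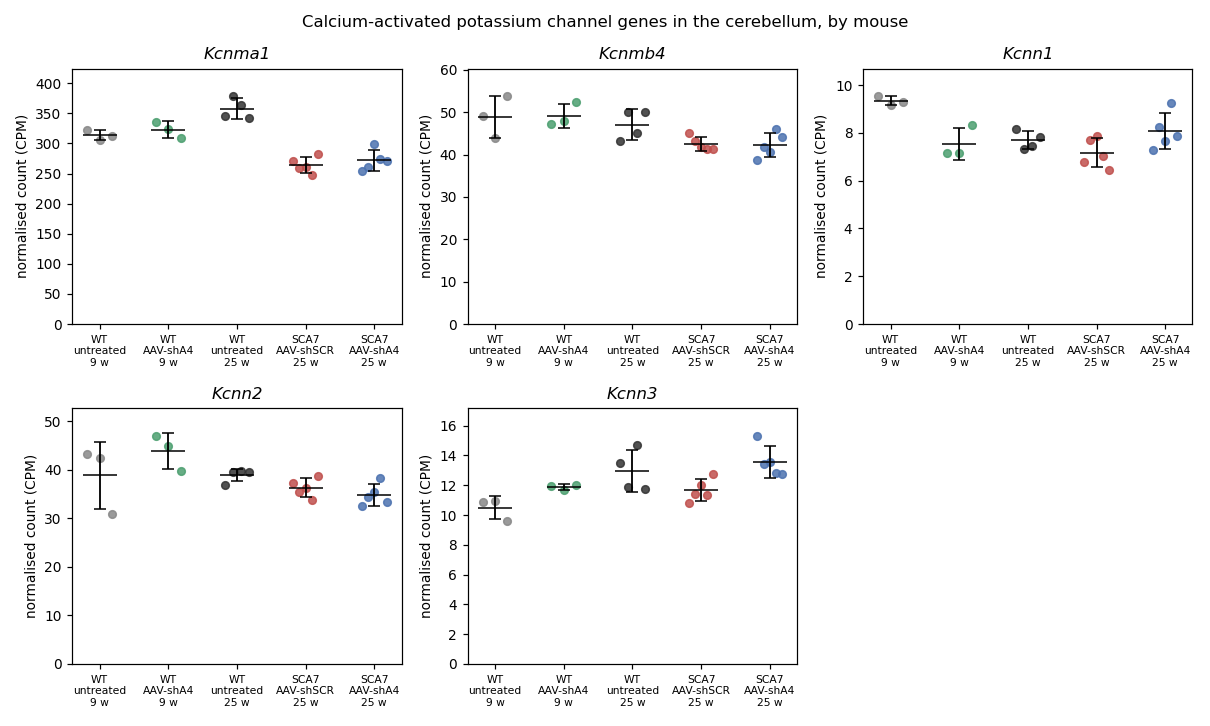
Normalised counts (CPM, y axis from 0) of the 5 channel genes in each mouse (points) of the 5 conditions (x axis), with the mean and SD (black). For Kcnma1, the 10 SCA7 mice lie between 247 and 299 CPM, all below the 4 WT mice of 25 weeks at 341 to 379 CPM. How large a share of all genes separates in this way was not computed.

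The BK pore gene Kcnma1 was lower in SCA7 mice than in WT mice of 25 weeks, whichever hairpin the SCA7 mice had received. The WT mice had 345, 379, 364 and 341 CPM. The AAV-shSCR-treated SCA7 mice had 271, 260, 260, 247 and 282 CPM. The AAV-shA4-treated SCA7 mice had 254, 261, 299, 274 and 271 CPM. No mouse of either SCA7 group reached the lowest WT mouse, while the SCA7 groups overlapped each other throughout. How large a share of all genes separates in this way was not computed. With AAV-shSCR, Kcnma1 fell to 0.740 of the WT level (log2 fold change -0.44, SE 0.048, edgeR adjusted p = 7.22e-06). With AAV-shA4 it fell to 0.761 of the WT level (log2 fold change -0.39, SE 0.047, edgeR adjusted p = 2.30e-05). Without AAV-shA4-treated mouse 1 or without WT mouse 2 the latter change was -0.37 and -0.36, which is under the fold limit, with edgeR adjusted p of 5.18e-05 and 0.000159.

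Kcnma1 was the 1 of 5 channel genes called in each of these comparisons, where 4.02% of all genes tested were called with AAV-shSCR and 3.45% with AAV-shA4. The comparisons share their WT mice. Between the SCA7 groups, Kcnma1 differed by 0.04 on the log2 scale (95% interval -0.05 to 0.14, edgeR adjusted p = 0.835), and 0% of all genes were called, although 1222 had an unadjusted p under 0.05. In bulk tissue, fewer cells of a type and less RNA per cell cannot be told apart. PC markers moved in the same direction: 12 of 12 were lower with AAV-shSCR (9 called, median log2 fold change -0.46, against 0.00 over all genes) and 12 of 12 with AAV-shA4 (8 called, median -0.43). The markers differed widely in size of change, from -0.78 to -0.10 with AAV-shSCR and from -0.75 to -0.12 with AAV-shA4. Their summed level was 11102 to 12567 CPM in WT mice, 7864.5 to 8748.1 CPM with AAV-shSCR and 7922.7 to 9235 CPM with AAV-shA4, and their part in the result was not tested.

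Kcnmb4, the BK accessory subunit gene, was not called in any comparison. WT mice of 25 weeks had 43.1, 50.01, 45.0 and 50.1 CPM, AAV-shSCR-treated SCA7 mice 45.2, 43.2, 41.8, 41.4 and 41.3 CPM, and AAV-shA4-treated SCA7 mice 38.6, 41.9, 40.6, 45.9 and 44.1 CPM. Both SCA7 groups overlapped the WT mice. The log2 fold change against WT mice was -0.14 with AAV-shSCR (SE 0.055, edgeR adjusted p = 0.0899) and -0.16 with AAV-shA4 (SE 0.055, edgeR adjusted p = 0.0704). The antisense transcript Kcnmb4os2, on the opposite strand, had 122 to 280 counts per library and Kcnmb4os1 13 to 47. Whether counting used strand is not given in the sources used here, so their reads and those of Kcnmb4 cannot be told apart with certainty.

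Within a library, Kcnmb4 was 13.2% ± 1.07 of the Kcnma1 level in CPM in WT mice of 25 weeks (SD, n = 4). It was 16.1% ± 0.887 with AAV-shSCR (SD, n = 5) and 15.6% ± 1.26 with AAV-shA4 (SD, n = 5). The lowest SCA7 mouse of each group, at 14.6% and 13.5%, lay below the highest WT mouse at 14.7%. The log2 ratio was higher than in WT mice by 0.29 with AAV-shSCR and by 0.24 with AAV-shA4, each with p = 0.0317 in a two-sided exact permutation test. Adjusted over 5 comparisons, both had p = 0.0794 by the exact permutation test and did not pass.

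The SK genes showed no call against WT mice. Kcnn2, the gene of the SK2 channel, had 36.9, 39.5, 39.7 and 39.6 CPM in WT mice of 25 weeks. It had 37.3, 35.4, 36.2, 33.8 and 38.8 CPM with AAV-shSCR, and 32.5, 34.4, 35.5, 38.3 and 33.3 CPM with AAV-shA4. Mice of both SCA7 groups reached into the WT range, but only through WT mouse 1 at 36.9 CPM. The highest mice of the SCA7 groups, at 38.8 and 38.3 CPM, lay below the remaining WT mice at 39.5 to 39.7 CPM. With AAV-shA4 the log2 fold change was -0.16 (SE 0.050, edgeR adjusted p = 0.0391), which passes the p limit but not the fold limit. With AAV-shSCR it was -0.10 (edgeR adjusted p = 0.203), and the SCA7 groups differed by -0.06 (95% interval -0.16 to 0.04, edgeR adjusted p = 0.748).

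Kcnn3, the gene of the SK3 channel and the one with 7 CAG in a row, was not lower in either set of AAV-shA4-treated mice. At 9 weeks AAV-shA4-treated WT mice had 11.98, 11.7 and 12.04 CPM, against 10.9, 10.97 and 9.60 CPM without treatment. The groups did not overlap. The log2 fold change was 0.18 (95% interval -0.01 to 0.38, edgeR adjusted p = 0.474), and 0 of 5 channel genes were called, where 0.0543% of all genes were. At 25 weeks it had 15.3, 13.4, 13.6, 12.8 and 12.7 CPM in AAV-shA4-treated SCA7 mice and 10.8, 11.4, 12.01, 11.4 and 12.8 CPM in AAV-shSCR-treated ones. Only the highest AAV-shSCR-treated mouse reached the AAV-shA4 range. The log2 difference was 0.21 (95% interval 0.06 to 0.37), with edgeR adjusted p = 0.530. WT mice of 25 weeks had 13.5, 11.9, 14.7 and 11.7 CPM, and neither SCA7 group passed against them (edgeR adjusted p = 0.220 and 0.654).

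Kcnn1, the gene of the SK1 channel, was at 7.14, 7.16 and 8.33 CPM with AAV-shA4 in WT mice of 9 weeks, against 9.55, 9.18 and 9.30 CPM without it. The groups did not overlap, but the log2 fold change of -0.31 (SE 0.10) had an edgeR adjusted p = 0.312. As for Kcnn3, the share of all genes without overlap was not computed. The depth of these groups did not overlap either, at 36245752 to 39208298 against 47455917 to 49212593 counts, and its part was not tested. At 25 weeks Kcnn1 lay between 7.33 and 8.16 CPM in WT mice, 6.47 and 7.88 CPM with AAV-shSCR, and 7.28 and 9.27 CPM with AAV-shA4. The 3 ranges overlapped, and the log2 fold changes against WT mice were -0.10 and 0.07 (edgeR adjusted p = 0.460 and 0.658).

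**Figure D2:**
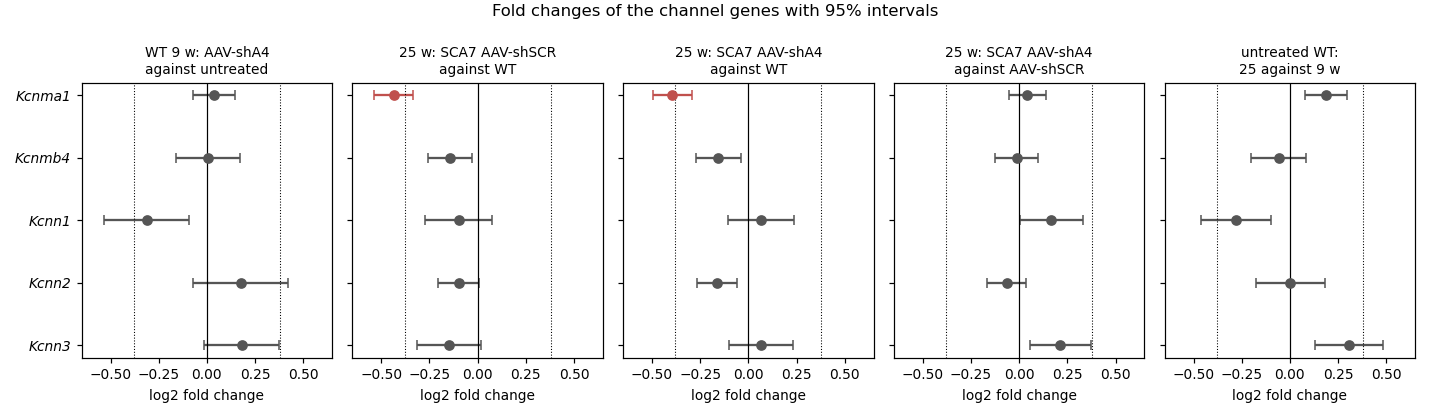
Log2 fold changes (x axis) of the 5 channel genes in the 5 comparisons, with 95% intervals as bars. Dotted lines mark the fold limit of 1.3, and red marks a called gene. Kcnma1 is red in both comparisons of SCA7 with WT mice, at -0.44 and -0.39.

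Each channel gene was also set against the mean log2 level of the 12 PC markers in the same library. Relative to these markers, Kcnma1 differed from WT mice of 25 weeks by 0.03 with AAV-shSCR and by 0.04 with AAV-shA4 on the log2 scale (exact permutation test, adjusted p = 0.429 for both). The other 4 genes lay higher relative to the markers, by 0.32 to 0.37 with AAV-shSCR and by 0.27 to 0.50 with AAV-shA4. The markers themselves were lower in SCA7 mice (median log2 fold change -0.46 and -0.43). A gene with no change of its own therefore lies higher on this scale. Without the markers, the log2 fold changes of these 4 genes were -0.15 to -0.10 with AAV-shSCR and -0.16 to 0.07 with AAV-shA4. Relative to the markers, neither SCA7 group overlapped the WT mice for Kcnmb4, Kcnn1 and Kcnn2, and for Kcnn3 the AAV-shA4 group did not overlap them while the AAV-shSCR group did. The share of all genes without overlap on this scale was not computed, so the separation cannot be called particular to the channel genes. The lowest adjusted p of the 25 tests was 0.0567 by the exact permutation test with a two-sided p of 2 times the smaller tail, so 0 passed. Each test at this value was of 5 against 4 mice and had an exact permutation p = 0.0159, the smallest possible with these numbers. Comparisons with a 9-week group could not go below 0.1 or 0.0571, so they could not pass. Not passing is therefore no sign that the levels were alike. All 25 tests were first run with p as the share of splits with an absolute difference at least as large. Of these, 5 of 25 then passed at an exact permutation adjusted p = 0.0397. The definition given here as the main one replaced it after these 5 had been seen, so whether any test passed rests on the definition.

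**Figure D3:**
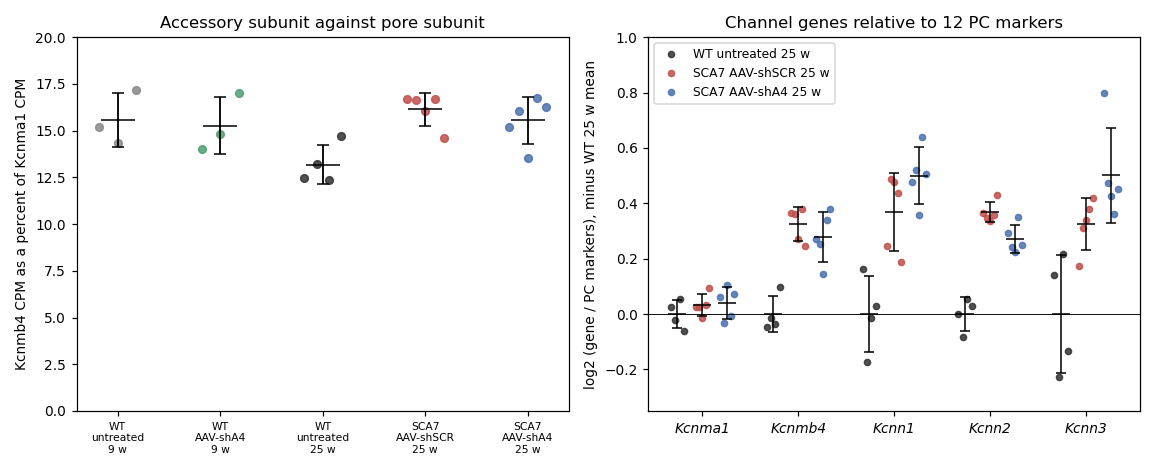
Left, Kcnmb4 CPM as a percent of Kcnma1 CPM in each mouse (points), with mean and SD in black. Right, log2 level of each channel gene relative to 12 PC markers minus the mean of the WT mice of 25 weeks, with mean and SD in black, where Kcnma1 differs by 0.03 and 0.04 and Kcnn2 by 0.37 and 0.27 in the SCA7 groups. The PC markers were themselves lower in SCA7 mice.

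AAV-shA4 in WT mice of 9 weeks left Kcnma1 at 336, 323 and 309 CPM, overlapping the untreated mice, with a log2 fold change of 0.04 (95% interval -0.07 to 0.15, edgeR adjusted p = 0.801). Kcnmb4 had 47.2, 47.9 and 52.4 CPM with the vector, also overlapping, with a log2 fold change of 0.00 (95% interval -0.16 to 0.17, edgeR adjusted p = 0.985). Kcnn2 had 47.0, 44.9 and 39.8 CPM with a log2 fold change of 0.18 (95% interval -0.07 to 0.42, edgeR adjusted p = 0.584), and its interval was the widest of the 5 genes in this comparison. Leaving out 1 mouse at a time moved the Kcnn2 value from 0.035, without untreated mouse 3, to 0.257, without untreated mouse 1. Kcnmb4 was 15.3% ± 1.54 of Kcnma1 with AAV-shA4 and 15.6% ± 1.47 without it (SD, n = 3 each), with a two-sided exact permutation p = 0.700.

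Untreated WT mice of 25 and 9 weeks were compared as well. Time and cohort cannot be told apart here. Of the 5 channel genes 0 were called, where 5.27% of all genes were. The p limit alone was passed by 3 of the 5, and by 3651 of all 15095 genes tested. Kcnma1 was higher at 25 weeks, against 323, 306 and 313 CPM at 9 weeks (log2 fold change 0.19, edgeR adjusted p = 0.0127). Kcnn3 was also higher (0.31, edgeR adjusted p = 0.0125) and Kcnn1 was lower (-0.28, edgeR adjusted p = 0.0239). For these 3 genes the groups did not overlap, but the share of all genes without overlap was not computed. All 8 oligodendrocyte markers were lower at 25 weeks (6 called, summed level 5640.9 to 6680.7 against 7936.6 to 8251.5 CPM), as were 7 of 8 granule cell markers (1 called), 7 of 8 astrocyte and Bergmann glia markers (0 called) and 6 of 8 vascular and muscle markers (1 called). Higher were 8 of 8 choroid plexus and ependyma markers (2 called, median 0.58), 8 of 8 microglia markers (0 called, 3 past the p limit) and 6 of 8 interneuron markers (1 called), while PC markers were 6 higher and 6 lower (0 called). The part of these markers in the values of the channel genes was not tested. Kcnn2 had 43.2, 42.5 and 31.0 CPM at 9 weeks, and Kcnmb4 had 49.0, 43.9 and 53.8 CPM, with log2 fold changes of 0.00 and -0.06.

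Among the 14 libraries of 25 weeks, the genes whose log2 CPM was most like that of Kcnma1 were Itpr1 (r = 0.991, and 0.924 after subtracting group means), Pde5a (0.986 and 0.897) and Car8 (0.985 and 0.87). Itpr1, the calcium release channel of the endoplasmic reticulum, and Car8 are also in the PC marker list. For Kcnmb4 the most alike genes were Kcnk3, Phyhip and Gdpd5 (r = 0.883 to 0.906), for Kcnn2 Chst10, Fam78b and Prune1 (0.863 to 0.875), for Kcnn3 Map2k4, Hapln1 and Sec23a (0.816 to 0.852), and for Kcnn1 Nup43, Inca1 and Aoah (0.772 to 0.782). Among the pairs of channel genes, the highest r was that of Kcnma1 and Kcnn2, 0.73 (0.648 within groups). The lowest was that of Kcnmb4 and Kcnn3, -0.434 (-0.844 within groups). Kcnmb4 and Kcnn2 had r = 0.715 (0.525 within groups). The BK pore and accessory genes, Kcnma1 and Kcnmb4, had r = 0.655, but 0.199 within groups. These are descriptions over 14 libraries that share depth and group structure, and the most alike were picked among 14862 genes.

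Other genes of the family ranged from a few counts to abundant. Of 11 listed, 8 were tested and 0 were called in any of the 5 comparisons. Kcnt1, a sodium-activated potassium channel gene, had 500 ± 33.7 CPM in WT mice of 25 weeks (SD, n = 4), with log2 fold changes of 0.07 and 0.01 in SCA7 mice. Kcnmb3, Lrrc26 and Lrrc52 did not pass the filter, with at most 2, 10 and 7 counts in a library. Kcnmb1, the beta1 subunit of smooth muscle BK channels, had 0.770 to 1.74 CPM in WT mice of 25 weeks, beside a summed level of 8 vascular and muscle markers of 272.83 to 324.72 CPM. Of 8 genes of the SK complex, such as calmodulin and casein kinase 2 subunits, 0 were called in the SCA7 comparisons.

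Genes that bring calcium to these channels moved both ways. Of 12 listed channels of calcium entry and release, 3 were called with AAV-shSCR against WT mice, 2 lower and 1 higher (median of the list -0.00). Of all genes tested, 4.02% were called with AAV-shSCR and 3.45% with AAV-shA4, but the list was chosen with earlier results of these data known. Itpr1 (-0.42) and Cacna1g, a T-type calcium channel (-0.41), fell, and Ryr3, a ryanodine receptor, rose (0.60). With AAV-shA4 the values of these genes were -0.38, -0.41 and 0.41, and each was called. Cacna1a, the P/Q-type channel, had -0.06 and -0.11 and was not called (edgeR adjusted p = 0.412 and 0.113).

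Of 11 listed genes of calcium buffering and removal, 4 were called with AAV-shSCR, 3 lower and 1 higher (median of the list -0.10). The calcium pumps Atp2a3 (-0.54) and Atp2a2 (-0.49) and the buffer Calb1 (-0.46) fell, and the sodium-calcium exchanger Slc8a3 rose (0.39). With AAV-shA4 the first 3 genes were called again, at -0.55, -0.44 and -0.41, and Slc8a3 was at 0.33. Itpr1 and Calb1 are also PC markers, so these lists are not separate from that list. Between the SCA7 groups 0 genes of either list were called.

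Markers of 7 other cell groups had smaller median changes than the PC markers in SCA7 mice. With AAV-shSCR against WT mice, the median log2 fold changes were 0.00 for granule cells (0 of 8 called), -0.26 for interneurons (2 of 8), -0.13 for astrocytes and Bergmann glia (0 of 8), -0.26 for oligodendrocytes (3 of 8), 0.02 for microglia (0 of 8), 0.05 for vascular and muscle cells (1 of 8) and -0.23 for choroid plexus and ependyma (0 of 8). With AAV-shA4 they were -0.13, -0.10, -0.15, -0.19, 0.09, -0.18 and -0.34 in the same order, with 0, 2, 0, 2, 0, 1 and 0 called. Choroid plexus and ependymal markers varied between mice, from 54.608 to 3226.7 CPM in sum within the AAV-shA4-treated SCA7 mice. Their part in the values of the channel genes was not tested.

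**Figure D4:**
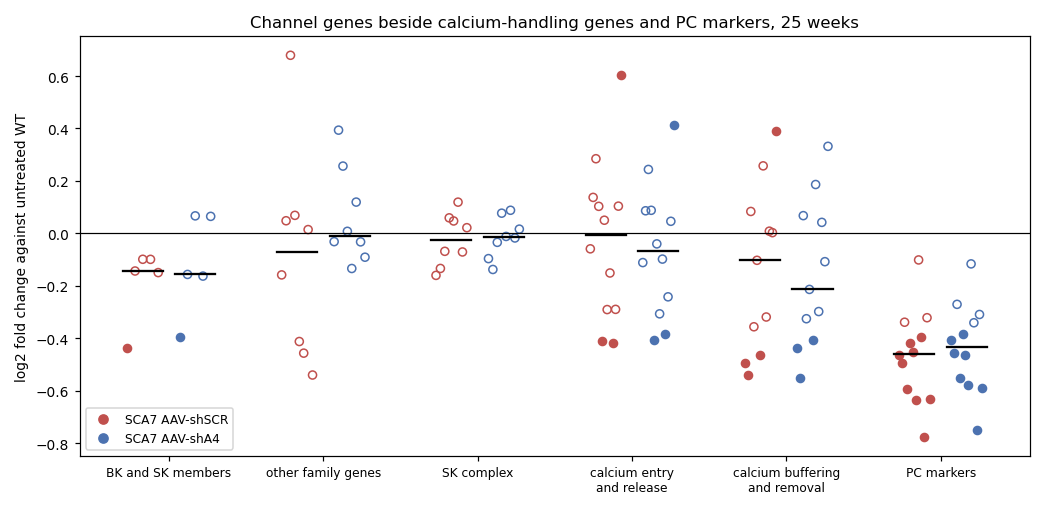
Log2 fold changes against untreated WT mice of 25 weeks (y axis) for the channel genes, the calcium-handling lists and the PC markers (x axis), each point a gene, filled where called and with a black line at the list's median. The PC markers have medians of -0.46 and -0.43, and Kcnma1 is the 1 filled channel gene in each SCA7 group.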

How the data were processed

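The authors sequenced cerebellar RNA from 20 mice in 5 conditions, taken from the labels. The raw counts of reads per gene were deposited without normalization (55401 genes). Per the submitters' notes, cutadapt 1.10, Bowtie2 2.2.8, STAR 2.5.3a and HTSeq 0.6.1p1 were used. The genome was GRCm38, and GENCODE M21 annotated 55141 of the genes, of which 21897 are protein-coding.

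Counts were tested with edgeR 4.0.16 in R 4.3.3, by its quasi-likelihood test after TMM scaling and filterByExpr with a minimum count of 10 and total of 15. The 6 early libraries, the 14 late libraries and, for 25 against 9 weeks, all 20 were fitted together, with 14733, 14862 and 15095 genes. Ratios used log2 of CPM with 0.1 added and two-sided exact permutation tests (scipy's definition, 2 times the smaller tail, which replaced a first run on absolute differences after both were seen). With 3 against 3 mice, the exact permutation p cannot go below 0.1, with 4 against 3 below 0.0571, and with 5 against 4 below 0.0159. Leaving out mice, DESeq2 1.42.0, other filters and scalings were tried as alternatives. The edgeR scripts were tested on simulated data.

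The channel genes and all gene lists were chosen with earlier results of these data known. Named are all 5 members, up to 4 called genes per list with the largest change, and the 3 genes most like each member. Mice of a condition differed by more than counting noise (chi-squared per degree of freedom 4.87 to 26.2 over 32 pairs). Replicate numbers were not treated as pairs. Other gene groups were not analysed here.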

Additional observations from a re-analysis of the deposited data

Results flagged for a closer look

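Kcnn2 in WT mice of 25 weeks had 1 mouse apart from the other 3, at 36.94 CPM against 39.5 to 39.7 CPM, where the gap was 0.938 of the whole range (n = 4). Of 15 groups of 4 or 5 mice tested for the channel genes, 1 stood out in this way, and chance gives about 1 in 20.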

How the results depend on the processing

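With the fold limit dropped, 2 of 5 channel genes were called in AAV-shA4-treated SCA7 mice against WT mice and 3 in untreated WT mice of 25 against 9 weeks, in place of 1 and 0. Among all genes tested, 2018 of 14862 and 3651 of 15095 passed the p limit alone in the same comparisons. The counts of called channel genes did not move with DESeq2, DESeq2 size factors, no filter, all annotated genes, robust estimation or only the libraries of the 2 conditions. Leaving out 1 mouse at a time, the count stayed at 0 at 9 weeks, at 1 with AAV-shSCR, at 0 between SCA7 groups and at 0 for 25 against 9 weeks, and ranged from 0 to 1 with AAV-shA4. Signs turned only among values that passed no test: at 9 weeks the log2 values of Kcnmb4 ranged from -0.064 to 0.080, the Kcnmb4 to Kcnma1 ratio from -0.108 to 0.045, and relative to PC markers Kcnma1 from -0.020 to 0.016, Kcnmb4 from -0.099 to 0.043 and Kcnn2 from -0.025 to 0.256. Between SCA7 groups Kcnmb4 ranged from -0.044 to 0.019 and Kcnma1 relative to PC markers from -0.0083 to 0.026. For 25 against 9 weeks, Kcnmb4 ranged from -0.129 to 0.017, Kcnn2 from -0.139 to 0.084 and Kcnn2 relative to PC markers from -0.174 to 0.107, and the lowest values of Kcnn2 were those without untreated WT mouse 3 of 9 weeks.

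The two-sided permutation p was first computed from the absolute difference, and the main definition, 2 times the smaller tail, replaced it after the results of both had been seen. The first definition gave an adjusted p = 0.0397 in 5 of 25 exact permutation tests relative to PC markers: Kcnmb4 (0.33) and Kcnn2 (0.37) with AAV-shSCR, and Kcnn1 (0.50), Kcnn2 (0.27) and Kcnn3 (0.50) with AAV-shA4. The PC markers were themselves lower in SCA7 mice, so a gene with no change of its own lies higher relative to them.

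Replicate numbers were not treated as pairs. Same-numbered mice correlated at -0.0803 to 0.0865 in the early libraries (3 pairs) and at -0.224 to 0.539 in the late ones (3 of 13 pairs over 0.1). Different-numbered mice correlated at -0.0955 to 0.0899 in the early libraries and at -0.479 to 0.305 in the late ones (10 of 52 pairs over 0.1). The late medians were 0.00867 for same and 0.00577 for different numbers, but the highest late value was that of a same-numbered pair. With the replicate block, the counts of called channel genes were 0, 1, 1, 0 and 0, as without it, and Kcnma1 had log2 fold changes of -0.45 and -0.41 in SCA7 mice.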
